A study of Mus musculus with 95 samples.

Results

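The genes described here are 10 core pluripotency and Dppa genes of mouse embryonic stem cells: Pou5f1, Sox2, Nanog, Sall4, Utf1, Lin28a, Dppa2, Dppa3, Dppa4 and Dppa5a. They were chosen by name out of 23377 genes in the count table. The 10 genes were all among the 15464 genes that passed the filter on low counts. RNA was compared between wild-type cells and 6 knockout lines, and H3K4me3, H3K36me3 and PCGF peaks were read at each locus.

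All lines derived from E14, an established mouse embryonic stem cell line, and were kept on gelatin with serum, LIF (the cytokine that holds these cells undifferentiated) and small molecules against GSK3β and MEK1/2. The RNA groups were wild-type, Pcgf1-/-, Pcgf2/4-/- (lacking Pcgf2 and Bmi1, the gene of PCGF4), Pcgf3/5-/-, Pcgf6-/-, Pcgf1/2/4-/- and Pcgf3/5/6-/-, with 2 libraries each. Knockouts were made with Cas9 as isolated clones, and the double and triple lines came from single-knockout clones, so genotype and clone cannot be told apart. Nothing in the labels says that the 2 libraries of a group came from separate cultures, so p-values measure only the spread between libraries, which may be technical. All comparisons with wild-type share the same 2 control libraries. The ChIP-seq lists come from these lines and from Ezh1/2-/-, Ring1a/b-/-, the line labelled Ring1a-/-_Ring1bfl (a conditional line with floxed Ring1b and a CreERT2 at Rosa26) and shCtr, cells with a lentiviral control hairpin that were selected with puromycin. PCGF6 lists also come from hairpin cells labelled shMGA, shMGAdHLH, shE2F6 and shE2F6-MGAdHLH, and PCGF3 lists from shUsf1 and shUsf2.

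PCGF proteins are the subunits that define the forms of Polycomb repressive complex 1, which holds RING1A or RING1B and places ubiquitin on histone H2A (H2AK119ub1). PCGF2 and PCGF4 belong to canonical complexes that read H3K27me3, while PCGF1, PCGF3, PCGF5 and PCGF6 belong to variant complexes, of which the PCGF6 form carries the MAX and MGA pair that binds E-box and T-box sequences. OCT4 (from Pou5f1), SOX2 and NANOG bind together at enhancers of the pluripotency network, often at a joined octamer and SOX site. SALL4 is a zinc finger partner of that network, UTF1 is a chromatin protein of pluripotent cells, and LIN28A is an RNA-binding protein that blocks maturation of let-7. DPPA2 and DPPA4 are paired SAP-domain proteins that switch on genes of the 2-cell embryo, DPPA3 (also called Stella or PGC7) guards DNA methylation in the zygote, and Dppa5a encodes a small KH-domain protein.

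Dppa3 and Lin28a were the members whose RNA differed between genotypes most firmly. Dppa3 differed from wild-type in all 6 knockouts: it was 5.92-fold higher in the libraries labelled Pcgf3/5/6-/-, 3.73-fold higher in Pcgf6-/-, 2.21-fold higher in Pcgf1/2/4-/-, 2.12-fold higher in Pcgf2/4-/-, 1.43-fold higher in Pcgf1-/- and 1.67-fold lower in Pcgf3/5-/-. Lin28a fell in the 4 single and double knockouts, by 1.46-fold to 1.79-fold, and rose 1.60-fold in Pcgf3/5/6-/-. Sox2 rose in 4 knockouts by 1.28-fold to 1.74-fold, and only its rise in Pcgf2/4-/- held with the 2 wild-type libraries counted as 1 sample. Pou5f1 rose in both triple knockouts and Dppa5a in Pcgf1/2/4-/-, lines whose libraries were among the shallowest. These rises were lost with a term for library depth. A fit with loess offsets, set to each library's trend along counts per exonic base, kept both genes higher in Pcgf1/2/4-/-. There all 10 members passed, 5 higher and 5 lower (40.7% of all genes called).

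The 14 libraries held 2147968 to 7848161 counts, with 6827571 and 6967931 in wild-type and 2147968 to 3120754 in the 4 triple-knockout libraries. The pair in Pcgf2/4-/- held 2764111 and 7547984 counts. The 2 wild-type libraries differed by less than sampling noise (chi-square per degree of freedom 0.951 over 13931 genes, against 1.19 to 21.3 in the other pairs), so they may be 1 library. The wild-type level therefore carries no SD, and each comparison with wild-type was also fitted with the pair summed and counted as 1 sample. Calls that this ended are named below with their adjusted p. It was done with 1 scaling factor per library only, and not for the depth term or the differences between effects given below. Of the targeted genes, Pcgf1 fell from 61.0 and 66.1 CPM (counts scaled to the library total with TMM factors) in wild-type to between 0.534 and 4.81 in the 4 libraries without it, and Pcgf6 had 0 counts in Pcgf6-/-. The other targeted genes were not at 0: Pcgf6 stood at 37.2 and 42.0 CPM in Pcgf3/5/6-/- against 34.3 and 36.2 in wild-type, which goes against the label of that line unless the edit leaves the RNA in place. Pcgf2 was at 41.05 and 54.8 CPM in Pcgf2/4-/- against 42.9 and 48.9 in wild-type, and Bmi1 at 12.1 and 14.1 against 14.2 and 16.1. In Pcgf1/2/4-/- Pcgf2 was at 56.9 and 57.1 CPM and Bmi1 at 13.9 and 19.9. Pcgf3 was at 11.4 and 12.8 CPM in Pcgf3/5-/- and 13.5 and 13.6 in Pcgf3/5/6-/- against 15.5 and 16.4, and Pcgf5 at 4.60 and 5.48 and at 13.5 and 16.4 against 10.8 and 13.0. Counts over a whole gene check nothing where the edit leaves its transcript, so these 4 genotypes are named as labelled. Defining markers of embryonic stem cells were present: 5 genes other than the 10 (Zfp42, Esrrb, Klf4, Fut4 and Tdgf1) summed to 1016 to 1023 CPM in wild-type and to 767 to 1812 CPM elsewhere, with Fut4 at 0 counts in 4 of the 7 groups. In bulk RNA, fewer cells of a type and less RNA per cell cannot be told apart.

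The members sit high in the order of expression, where depth matters. Per length, the wild-type level was 207.9 RPKM (counts per kilobase of exon and scaled library total) for Dppa5a (mean of the pair counted as 1 sample), 148 for Utf1, 123.9 for Dppa4, 119.4 for Pou5f1 and 116 for Dppa2. Sall4 (67.6), Nanog (56.1), Lin28a (49.5), Sox2 (33.6) and Dppa3 (28.2) were lower on the same RPKM scale. Ranked by counts per exonic base over all libraries, Dppa5a stood at percentile 99.9 of matched genes, Pou5f1 at 98.4, Utf1 at 97.0, Dppa2 at 96.9 and Dppa4 at 96.6, with Nanog, Dppa3, Sall4, Sox2 and Lin28a between 81.9 and 89.9.

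Counts of the highest members hardly followed depth. Dppa5a had 794 counts in the shallow Pcgf2/4-/- library and 926 in the deep one, a ratio of 1.17 where the totals differed by 2.73. In the same pair the ratio was 1.46 for Pou5f1, 2.01 for Dppa2, 2.08 for Dppa4 and 2.39 for Nanog, while Dppa3 (2.61), Utf1 (2.74), Sall4 (2.83), Sox2 (2.86) and Lin28a (3.31) lay near or above the ratio of totals. The median ratio over the 1422 genes with the most counts per exonic base was 2.04. Dppa5a also had 733 counts in both Pcgf1/2/4-/- libraries against 907 and 910 in the far deeper wild-type libraries. Fitted over libraries of the same genotype, 1 doubling of depth raised the count by 0.13 doublings for Dppa5a, 0.36 for Pou5f1, 0.67 for Dppa2 and 0.73 for Dppa4, against 0.99 for Dppa3, 1.00 for Sox2 and 1.17 for Lin28a and a median of 1.39 over all genes. In each of the 6 knockout pairs the shallower library had the higher CPM of both Pou5f1 and Dppa5a. Comparisons with wild-type are also given from a second fit that adds log2 library total as a term, estimated within genotypes. Totals within a pair differed 2.73-fold in Pcgf2/4-/- and 1.74-fold in Pcgf1-/-, against 1.02-fold to 1.34-fold in the other pairs. The term thus rests mostly on Pcgf2/4-/- and Pcgf1-/-. In the triple knockouts the ratios were 1.15 (Pcgf1/2/4-/-) and 1.07 (Pcgf3/5/6-/-). It called 38.0% to 64.8% of all genes tested against wild-type, where the first fit called 21.6% to 53.3%. The rise was small in Pcgf1/2/4-/-, from 37.0% to 38.0%. The second fit was not repeated with the wild-type pair as 1 sample. Its p-values could be far smaller at like SE. For Dppa3 in Pcgf3/5/6-/- against Pcgf3/5-/-, the quasi-likelihood test gave an adjusted p of 5.26e-99 (SE 0.14), against 4.05e-10 (SE 0.13) in the first fit. Small changes that the second fit called are less sure than their p-values. No triple-knockout library reached the depth of wild-type, so for these lines genotype and depth can be told apart only as far as the depth term holds.

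Positions are in NCBIM37 (mm9), with the GENCODE annotation of that build. Dppa3 lies at chr6:122576428-122580290 on the + strand, close to Nanog at chr6:122657507-122664651 (+), and Dppa4 at chr16:48283848-48294405 (+) lies next to Dppa2 at chr16:48310590-48319836 (+). Pou5f1 is at chr17:35642982-35647721 (+), Sox2, a gene of 1 exon, at chr3:34548927-34551383 (+), Sall4 at chr2:168573832-168593443 (-) and Utf1 at chr7:147129688-147131011 (+). Lin28a is at chr4:133559245-133574756 (-) and Dppa5a at chr9:78214859-78215984 (-).

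**Figure D1:**
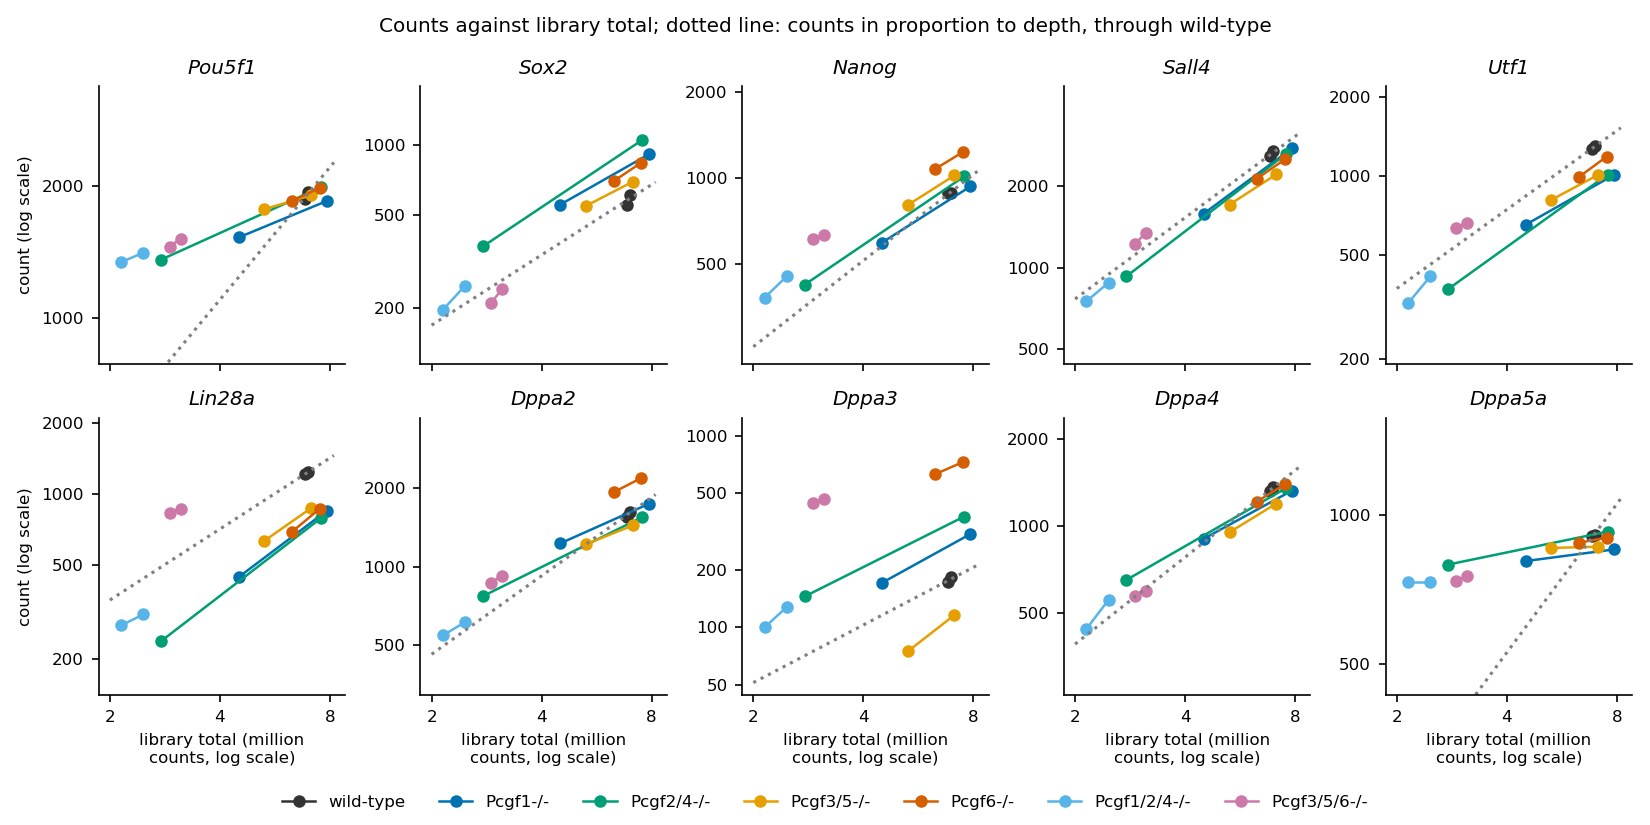
Counts of each of the 10 genes (vertical, log scale) against library total (horizontal, log scale), 1 point per library, with lines joining the 2 libraries of a genotype and a dotted line for counts in proportion to depth through wild-type. The points of Dppa5a run almost flat, from 733 to 926 counts, and those of Pou5f1 nearly so, while those of Sall4, Sox2 and Lin28a run along or parallel to the dotted line.

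Pou5f1, the gene of OCT4, was at 267 and 272 CPM in wild-type, 202 and 349 in Pcgf1-/-, 569.7 and 253 in Pcgf2/4-/-, 254 and 339 in Pcgf3/5-/- and 246 and 283 in Pcgf6-/-. The triple knockouts were at 717 and 637 CPM (Pcgf1/2/4-/-) and 479 and 492 CPM (Pcgf3/5/6-/-). In Pcgf1-/-, Pcgf2/4-/- and Pcgf3/5-/- the shallower library was the high one and the pair spanned the wild-type values, whereas all 4 triple-knockout libraries lay above wild-type. With 1 factor per library Pou5f1 rose 2.51-fold in Pcgf1/2/4-/- (log2 fold change 1.33, SE 0.32, adjusted p = 0.00561) and 1.80-fold in Pcgf3/5/6-/- (0.85, SE 0.31, adjusted p = 0.0344). With the depth term the log2 fold changes were -0.02 (adjusted p = 0.903) and -0.17 (adjusted p = 0.0835), and the fold in Pcgf1/2/4-/- was 0.984. Leaving out any 1 of the 4 libraries compared ended the call in Pcgf3/5/6-/- (adjusted p 0.0966 to 0.126) and in none of the 4 cases that in Pcgf1/2/4-/-. With wild-type as 1 sample the first call ended too (0.116) and the second did not (0.0374). Pou5f1 did not pass in Pcgf2/4-/- with both libraries (log2 fold change 0.60, adjusted p = 0.194), was at -0.07 without the shallow library and rose by 1.08 without the deep one.

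Dppa5a, the KH-domain gene, moved with Pou5f1 across libraries. It was at 129 and 128 CPM in wild-type, 93.1 and 184 in Pcgf1-/-, 333 and 118 in Pcgf2/4-/-, 115 and 165 in Pcgf3/5-/-, 112 and 135 in Pcgf6-/-, 391 and 331 in Pcgf1/2/4-/- and 238 and 249 in Pcgf3/5/6-/-. Again the shallower library of each unequal pair was high and the deeper one low. Dppa5a rose 2.80-fold in Pcgf1/2/4-/- (log2 fold change 1.49, SE 0.38, adjusted p = 0.00805) and missed the threshold in Pcgf3/5/6-/- at 1.89-fold (adjusted p = 0.0520). The call in Pcgf1/2/4-/- was lost without Pcgf1/2/4-/- replicate 1 (adjusted p = 0.0582) and stood at an adjusted p of 0.0456 with wild-type as 1 sample. After the depth term the values were -0.23 (adjusted p = 0.103) and -0.37 (adjusted p = 0.000347), the second a fall past the threshold. The genes whose genotype means were most like Pou5f1 over the 7 groups were Rps15 (Pearson r = 0.9995) and Rpl7a (0.9991), and Hsp90ab1 (0.9995) was among those most like Dppa5a, out of 11615 candidates. These neighbours encode ribosomal proteins and a chaperone. Here and below, the 7 points of such a likeness share the libraries and their depth.

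Sox2, whose protein pairs with OCT4, was at 79.3 and 85.9 CPM in wild-type. It was at 99.6 and 127 CPM in Pcgf1-/-, 154 and 134 in Pcgf2/4-/-, 93.0 and 105 in Pcgf3/5-/-, 105 and 107 in Pcgf6-/-, 105 and 113 in Pcgf1/2/4-/- and 76.5 and 71.3 in Pcgf3/5/6-/-. Every library of the first 5 knockouts lay above wild-type and both of Pcgf3/5/6-/- lay below. Sox2 rose 1.74-fold in Pcgf2/4-/- (log2 fold change 0.80, SE 0.13, adjusted p = 0.000791), 1.36-fold in Pcgf1-/- (adjusted p = 0.0166), 1.28-fold in Pcgf6-/- (adjusted p = 0.0343) and 1.32-fold in Pcgf1/2/4-/- (adjusted p = 0.0338). The rise held with the depth term in Pcgf1-/-, Pcgf2/4-/- and Pcgf6-/- (0.38, 0.69 and 0.36) and not in Pcgf1/2/4-/- (0.06, adjusted p = 0.771), and Pcgf3/5/6-/- became a fall of 0.42 (adjusted p = 0.000766). The rise in Pcgf6-/- lost the threshold without any 1 library (adjusted p 0.0804 to 0.207), as did that in Pcgf1/2/4-/- (0.0648 to 0.182). In Pcgf1-/- it was lost without wild-type replicate 1 (0.137), wild-type replicate 2 (0.0584) or Pcgf1-/- replicate 2 (0.0577). With wild-type as 1 sample the rise held in Pcgf2/4-/- (adjusted p = 0.00868) and not in Pcgf1-/- (0.0788), Pcgf6-/- (0.122) or Pcgf1/2/4-/- (0.113). Genes with the most similar genotype means were Fip1l1 (r = 0.997) and Ap4b1 (0.972).

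Nanog, the gene of the third core factor, was at 127 and 125 CPM in wild-type, between 102 and 178 CPM in the single and double knockouts, and between 199 and 206 CPM in the 4 triple-knockout libraries, which all lay above the rest. It rose 1.63-fold in Pcgf1/2/4-/- (log2 fold change 0.70, SE 0.17, adjusted p = 0.00546) and 1.61-fold in Pcgf3/5/6-/- (0.69, SE 0.17, adjusted p = 0.00282). These became 0.12, which did not pass, and 0.25, which did, with the depth term. Sall4, the zinc finger gene, was at 369 and 379.6 CPM in wild-type and between 296 and 424 CPM elsewhere, and no comparison with wild-type passed; with the depth term it fell in the 4 single and double knockouts, by 0.16 to 0.30. Nxt1 and Tab2 were nearest in pattern to Nanog (both r = 0.985), and Ankrd52 (0.981) and Ddx23 (0.9695) to Sall4.

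The upstream window of Nanog is shown because it was the single member whose 250 bases before the first annotated start held the joined octamer and SOX motif, searched on both strands as TTTGCAT, any base and ACAANG in 1 run. That motif stood in 3 of 20819 gene windows (0.0144%). The motif is in capitals, and the sequence is from chr6:122657257-122657506 on the + strand of NCBIM37 (mm9).
Nanog upstream: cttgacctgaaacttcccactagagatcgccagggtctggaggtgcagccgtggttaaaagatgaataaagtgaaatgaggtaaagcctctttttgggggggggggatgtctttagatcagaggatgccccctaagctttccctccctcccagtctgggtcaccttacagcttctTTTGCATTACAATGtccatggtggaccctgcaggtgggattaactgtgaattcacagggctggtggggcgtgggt
No member's window held the octamer ATTTGCAT (1.60% of genes), the SOX motif CTTTGTT (4.60%), the E-box CACGTG (6.67%), the E2F motif GGCGGGAA (2.47%) or the T-box motif AGGTGTGA (0.961%); the octamer and SOX motifs share letters with the joined motif. A match is a string of letters and not a bound site.

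Utf1, the chromatin protein gene, was at 181 and 182 CPM in wild-type, 110.2 and 149 in Pcgf1-/-, 155 and 129 in Pcgf2/4-/-, 135 and 155 in Pcgf3/5-/-, 147 and 152 in Pcgf6-/-, 175 and 187 in Pcgf1/2/4-/- and 209 and 214 in Pcgf3/5/6-/-. All 8 libraries of the single and double knockouts lay below wild-type, those of Pcgf1/2/4-/- straddled it and those of Pcgf3/5/6-/- lay above. The fall passed the threshold only in Pcgf1-/- (1.41-fold lower, log2 fold change -0.49, SE 0.15, adjusted p = 0.0229), and there it was lost without wild-type replicate 1 (adjusted p = 0.0981), wild-type replicate 2 (0.105) or Pcgf1-/- replicate 1 (0.200), or with wild-type as 1 sample (0.0901). Adding the depth term, Utf1 fell in Pcgf1-/-, Pcgf2/4-/-, Pcgf3/5-/-, Pcgf6-/- and Pcgf1/2/4-/-, by 0.28 to 0.58.

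Lin28a, the let-7 blocking RNA-binding protein, was at 173 and 174 CPM in wild-type. It was at 92.8 and 102 CPM in Pcgf1-/-, 99.7 and 101 in Pcgf2/4-/-, 116 and 121 in Pcgf3/5-/-, 108 and 106 in Pcgf6-/-, 148 and 139.5 in Pcgf1/2/4-/- and 274 and 280.2 in Pcgf3/5/6-/-. Both libraries of the first 5 knockouts lay below wild-type and both of Pcgf3/5/6-/- above, with no overlap in any of the 6 comparisons. Lin28a fell 1.79-fold in Pcgf1-/- (log2 fold change -0.84, SE 0.11, adjusted p = 7.43e-05), 1.73-fold in Pcgf2/4-/- (-0.79, adjusted p = 0.000273), 1.63-fold in Pcgf6-/- (-0.70, adjusted p = 0.000116) and 1.46-fold in Pcgf3/5-/- (-0.55, adjusted p = 0.00308). It rose 1.60-fold in Pcgf3/5/6-/- (0.68, SE 0.11, adjusted p = 0.000140), and in Pcgf1/2/4-/- it did not pass (-0.27, adjusted p = 0.0733). The 5 passing changes also passed with the depth term (-0.86, -0.80, -0.70, -0.56 and 0.62), with each library left out and with wild-type as 1 sample (adjusted p at most 0.0261).

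The level of Lin28a ran from Pcgf3/5/6-/- through wild-type, Pcgf1/2/4-/-, Pcgf3/5-/-, Pcgf6-/- and Pcgf2/4-/- to Pcgf1-/-, and of these neighbours only Pcgf3/5/6-/- and wild-type differed beyond their spread. In Pcgf3/5/6-/- Lin28a was 2.33-fold above Pcgf3/5-/- (adjusted p = 8.46e-07) and 2.60-fold above Pcgf6-/- (adjusted p = 9.46e-07). Per length, the mean was 79.0 RPKM ± 1.3 in Pcgf3/5/6-/- against 49.5 in wild-type and 27.7 ± 1.8 in Pcgf1-/- (SD, n = 2 for the knockouts). Gatsl3 (r = 0.985) and Hsf1 (0.980) had the most similar genotype means, and Gatsl3 was also nearest to Utf1 (0.973).

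Of 11 other genes of the LIN28 and let-7 pathway, 1 rose and 1 fell in Pcgf1-/-, 1 and 1 in Pcgf2/4-/-, 0 and 2 in Pcgf3/5-/-, 2 and 4 in Pcgf6-/-, 1 and 3 in Pcgf1/2/4-/- and 5 and 4 in Pcgf3/5/6-/-. Of all genes tested, 13.9% rose and 18.4% fell in Pcgf1-/-, 8.10% and 13.5% in Pcgf2/4-/-, 11.1% and 10.4% in Pcgf3/5-/-, 27.8% and 18.6% in Pcgf6-/-, 14.4% and 22.6% in Pcgf1/2/4-/- and 28.0% and 25.3% in Pcgf3/5/6-/-. The list's counts with the depth term, in that order of lines, were 4 and 3, 2 and 2, 2 and 2, 3 and 4, 1 and 2, and 6 and 4. Lin28b, the paralogue, fell in Pcgf2/4-/- (log2 fold change -1.48), Pcgf3/5-/- (-1.73) and Pcgf1/2/4-/- (-1.32; -0.78 with the depth term, adjusted p = 0.266) and rose from 10.4 CPM to 37.6 in Pcgf6-/- (1.85) and to 29.2 in Pcgf3/5/6-/- (1.49). Hmga2, a let-7 target, fell in Pcgf6-/- (-1.33) and Pcgf3/5/6-/- (-1.90), and the RNA-binding protein genes Igf2bp2 (-1.76) and Igf2bp3 (-2.50) fell in Pcgf3/5/6-/-. In Pcgf3/5/6-/- the list's median log2 fold change was 0.03 beside 0.05 over all genes tested.

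Dppa3, the guardian of zygotic DNA methylation, was at 24.5 and 25.7 CPM in wild-type, 33.6 and 39.1 in Pcgf1-/-, 60.7 and 48.4 in Pcgf2/4-/-, 15.5 and 14.4 in Pcgf3/5-/-, 90.9 and 96.7 in Pcgf6-/-, 53.4 and 57.8 in Pcgf1/2/4-/- and 147 and 151 in Pcgf3/5/6-/-. The Pcgf3/5-/- libraries were the lowest of the 14 and the Pcgf3/5/6-/- libraries the highest, and no knockout overlapped wild-type. Per length this was 28.2 RPKM in wild-type, 16.8 ± 0.89 in Pcgf3/5-/- and 167 ± 2.8 in Pcgf3/5/6-/- (SD, n = 2 for the knockouts).

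The log2 fold change of Dppa3 over wild-type was 2.57 in Pcgf3/5/6-/- (SE 0.12, adjusted p = 1.51e-09), 1.90 in Pcgf6-/- (SE 0.12, adjusted p = 1.59e-08), 1.15 in Pcgf1/2/4-/- (SE 0.14, adjusted p = 3.28e-05), 1.08 in Pcgf2/4-/- (SE 0.13, adjusted p = 6.18e-05), 0.52 in Pcgf1-/- (SE 0.12, adjusted p = 0.00603) and -0.74 in Pcgf3/5-/- (SE 0.14, adjusted p = 0.00178). The 6 changes also passed with the depth term, at 2.30, 1.90, 0.80, 0.98, 0.47 and -0.77 in the same order. Pcgf6-/- had wild-type depth, and there the depth term left the value at 1.90. Leaving out single libraries ended 1 of the 6 calls, in Pcgf1-/- without wild-type replicate 1 (0.48, adjusted p = 0.0597). With wild-type as 1 sample the 6 calls held, that in Pcgf1-/- at an adjusted p of 0.0320.

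The levels of Dppa3 fell in the order Pcgf3/5/6-/-, Pcgf6-/-, Pcgf1/2/4-/-, Pcgf2/4-/-, Pcgf1-/-, wild-type and Pcgf3/5-/-. Each neighbour differed from the next beyond its spread except Pcgf1/2/4-/- and Pcgf2/4-/- (log2 difference 0.06, adjusted p = 0.758). Pcgf3/5/6-/- was 9.92-fold above Pcgf3/5-/- (log2 3.31, SE 0.13, adjusted p = 4.05e-10) and 1.59-fold above Pcgf6-/- (0.67, SE 0.11, adjusted p = 0.000202; 0.40 with the depth term). Pygl (r = 0.958) and AU022252 (0.956) had the most similar genotype means.

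Of 8 genes for DPPA3 partners and DNA methylation, 2 rose and 0 fell in Pcgf1-/-, 1 and 5 in Pcgf2/4-/-, 2 and 2 in Pcgf3/5-/-, 1 and 3 in Pcgf6-/-, 3 and 1 in Pcgf1/2/4-/- and 3 and 2 in Pcgf3/5/6-/-. The shares of all genes that rose and fell in each line are those given with the LIN28 list. With the depth term 2 rose and 4 fell, 1 and 6, 2 and 4, 1 and 6, 2 and 1, and 4 and 4 in that order. The de novo methyltransferase gene Dnmt3a rose from 35.9 CPM to 170.2 in Pcgf3/5/6-/- (log2 fold change 2.24), 87.0 in Pcgf3/5-/- (1.28) and 76.1 in Pcgf6-/- (1.08), rose in Pcgf1-/- (0.59) and fell in Pcgf2/4-/- (-0.74). Dnmt3b, which also stands among the primed epiblast markers, fell in Pcgf6-/- (-1.18) and Pcgf3/5-/- (-0.78) and rose in Pcgf1/2/4-/- (1.24). Tet1, a gene of an enzyme that oxidises 5-methylcytosine, fell in Pcgf6-/- (-0.88) and Pcgf3/5/6-/- (-0.90).

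Dppa2 and Dppa4, which lie side by side on chromosome 16, did not pass in any knockout against wild-type. Dppa2 was at 222 and 229 CPM in wild-type and between 191 and 323 CPM elsewhere, with both libraries of Pcgf6-/- (273 and 296 CPM) and all 4 of the triple knockouts (277 to 294 CPM) above wild-type. Dppa4 was at 189 and 191 CPM in wild-type and between 145 and 272 CPM elsewhere. Dppa2 rose with the depth term in Pcgf6-/- (0.33) and fell in Pcgf3/5-/- (-0.18), Pcgf1/2/4-/- (-0.53) and Pcgf3/5/6-/- (-0.27). Dppa4 then fell in Pcgf1-/- (-0.25), Pcgf3/5-/- (-0.24), Pcgf1/2/4-/- (-0.41) and Pcgf3/5/6-/- (-0.58). Agpat9 (r = 0.964) and Asph (0.961) were nearest in pattern to Dppa2, and Ctbp2 (0.989) and Mthfd1 (0.980) to Dppa4.

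Genes that DPPA2 and DPPA4 are known to switch on, or that belong to the 2-cell programme, passed the test in each knockout for at least 9 of the 14 tested among 17 listed. Of these 14, 13 fell and 0 rose in Pcgf1-/-, 9 fell and 0 rose in Pcgf2/4-/-, 10 fell and 1 rose in Pcgf3/5-/- and 12 fell and 0 rose in Pcgf1/2/4-/-, whereas 14 rose in Pcgf6-/- (27.8% of all genes) and 14 in Pcgf3/5/6-/- (28.0%). Of all genes 18.4%, 13.5%, 10.4% and 22.6% fell in the first 4 of these lines. With the depth term 13, 10, 13 and 10 fell there (1 rose, in Pcgf3/5-/-), and 14 and 13 rose in the last 2. Their median log2 fold changes were -3.13, -0.78, -2.57, -2.82, 2.84 and 1.54 in that order, beside medians between -0.11 and 0.05 over all genes. Zscan4a, a marker of the 2-cell state, fell from 57.2 CPM to 2.04 in Pcgf1-/- (-4.52) and 4.70 in Pcgf3/5-/- (-3.61). Mael, a germline gene, rose from 22.0 CPM to 206.7 in Pcgf6-/- (3.23) and 240.5 in Pcgf3/5/6-/- (3.45), and Zfp352 rose to 111.5 CPM in Pcgf6-/- (5.40). Zscan4 and Usp17l genes are near-identical copies, so the split of reads among them is uncertain.

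**Figure D2:**
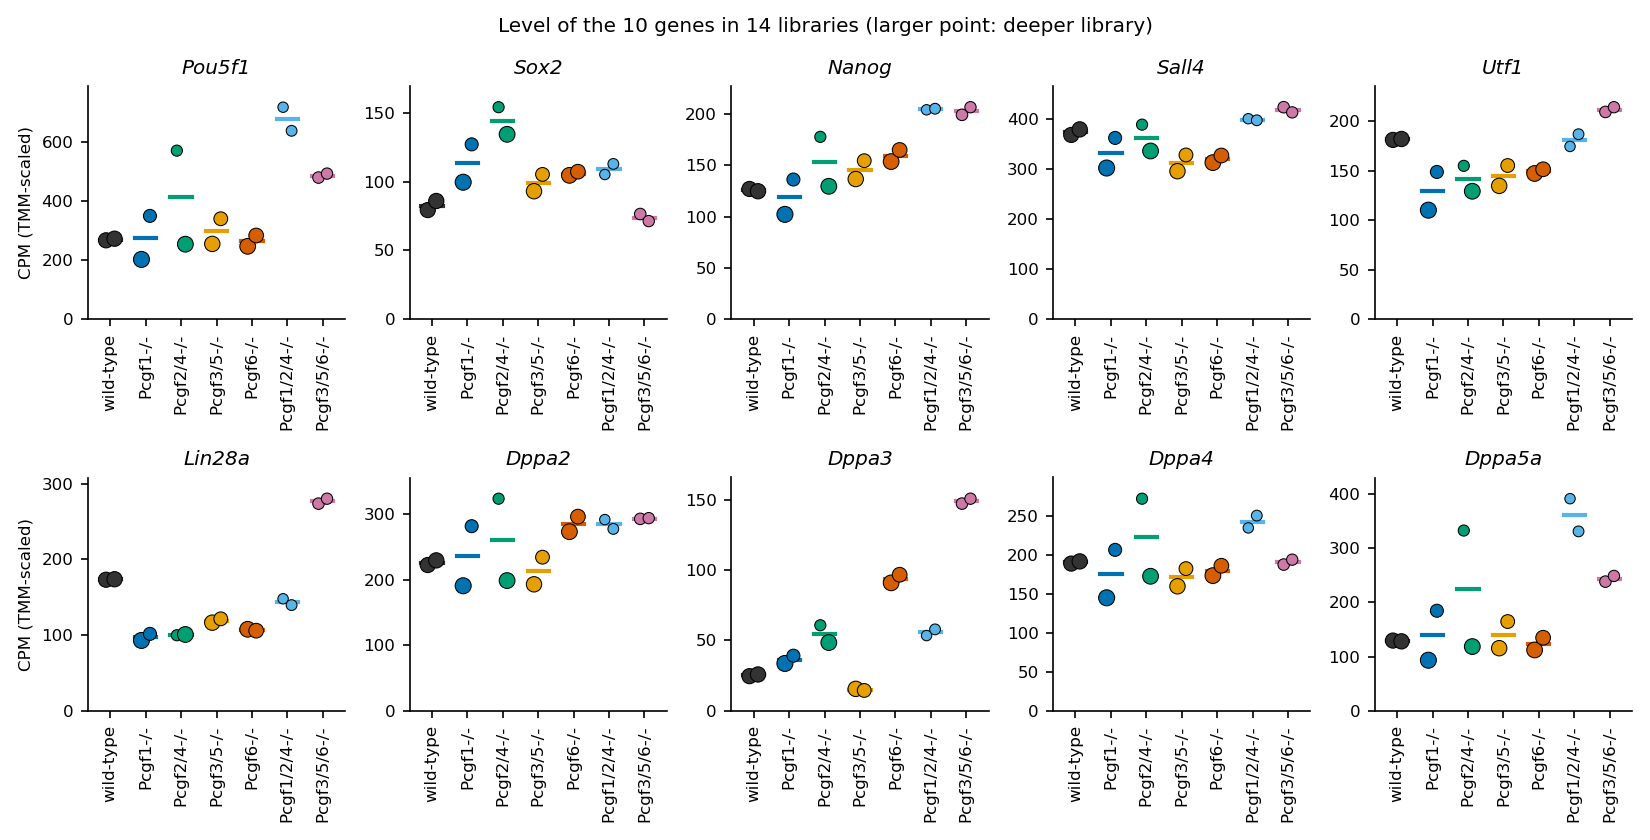
Level of the 10 genes in CPM with TMM scaling (vertical, from 0) in the 14 libraries (points, larger for deeper libraries) of 7 genotypes, with a bar at each mean. Dppa3 runs from 14.4 to 151 CPM with little spread within a genotype, Lin28a separates Pcgf3/5/6-/- from the rest, and in Pou5f1 and Dppa5a the small points stand highest.

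Counted over the members, 4 of 10 passed in Pcgf1-/- (background over all genes tested 32.3%): 2 rose (13.9%) and 2 fell (18.4%). In Pcgf2/4-/- 3 passed (21.6%), of which 2 rose (8.10%) and 1 fell (13.5%), and in Pcgf3/5-/- 2 passed (21.6%) and both fell (10.4%, with 11.1% raised). In Pcgf6-/- 3 passed (46.5%), of which 2 rose (27.8%) and 1 fell (18.6%). The 5 that passed in Pcgf1/2/4-/- (37.0%) and the 4 in Pcgf3/5/6-/- (53.3%) all rose (14.4% and 28.0% of all genes, with 22.6% and 25.3% lowered). With wild-type as 1 sample 2 passed in Pcgf1-/-, Lin28a lower and Dppa3 higher. In total counts the members lay near the background. Under the depth term 9 members passed in Pcgf1-/- (58.3% of all genes), 5 in Pcgf2/4-/- (41.6%), 7 in Pcgf3/5-/- (42.1%), 7 in Pcgf6-/- (64.8%), 5 in Pcgf1/2/4-/- (38.04%) and 7 in Pcgf3/5/6-/- (64.8%). The background thus grew with the members' counts except in Pcgf1/2/4-/-, where 5 members passed in both fits and the background hardly moved. In Pcgf1/2/4-/- the 5 that passed were all higher with 1 factor per library, and 1 higher and 4 lower with the depth term. The median log2 fold change of the members in Pcgf1/2/4-/- went from 0.38 to -0.23, and that of all genes from -0.11 to -0.09. Over the 1422 genes with the most counts per exonic base the median in Pcgf1/2/4-/- was 0.55 with 1 factor per library.

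Between knockouts, 6 of 10 members passed in Pcgf1/2/4-/- against Pcgf1-/- (background in either direction 41.6%) and 2 in Pcgf1/2/4-/- against Pcgf2/4-/- (30.0%). In Pcgf3/5/6-/- 6 passed against Pcgf3/5-/- (51.8%) and 6 against Pcgf6-/- (46.0%). Apart from Sox2 in the last 3 of these comparisons, the members that passed were higher in the triple knockout. This no longer held with the depth term: 2 members were higher and 2 lower in Pcgf1/2/4-/- against Pcgf1-/- (38.4% of all genes called), 1 and 3 against Pcgf2/4-/- (41.99%), 4 and 3 in Pcgf3/5/6-/- against Pcgf3/5-/- (65.4%) and 2 and 4 against Pcgf6-/- (55.7%). Lin28a rose in the 4 comparisons, by 1.43-fold to 2.60-fold, and also with the depth term (0.50, 0.45, 1.17 and 1.32 on the log2 scale). Dppa3 rose in 3 of them, of which that against Pcgf1-/- did not pass with the depth term, and differed by 0.06 on the log2 scale (adjusted p = 0.758) in Pcgf1/2/4-/- against Pcgf2/4-/-. Sox2 fell in Pcgf1/2/4-/- against Pcgf2/4-/- (-0.40, adjusted p = 0.0417) and in Pcgf3/5/6-/- against Pcgf3/5-/- (-0.42, adjusted p = 0.0178) and Pcgf6-/- (-0.52, adjusted p = 0.00635), and with the depth term (-0.63, -0.64 and -0.78). Triple-knockout libraries were the shallower side in all 4. The difference between lines with and without PCGF1 was not the same in the Pcgf2/4-/- and wild-type backgrounds for 3 of 10 members (background 30.9%). For PCGF6 it was not the same in the Pcgf3/5-/- and wild-type backgrounds for 5 (34.9%).

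The authors' deposited table gave log2 fold changes for Dppa3 of 0.58, 1.12, -0.73, 1.93, 1.23 and 2.64 in Pcgf1-/-, Pcgf2/4-/-, Pcgf3/5-/-, Pcgf6-/-, Pcgf1/2/4-/- and Pcgf3/5/6-/-. For Lin28a the authors' deposited table gave -0.78, -0.75, -0.54, -0.67, -0.19 and 0.75 in that order, and for Pou5f1 in the triple knockouts 1.42 and 0.92. The column for Pcgf6-/- in the authors' deposited table carries another clone name than the count columns, so whether both come from the same libraries is not known.

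**Figure D3:**
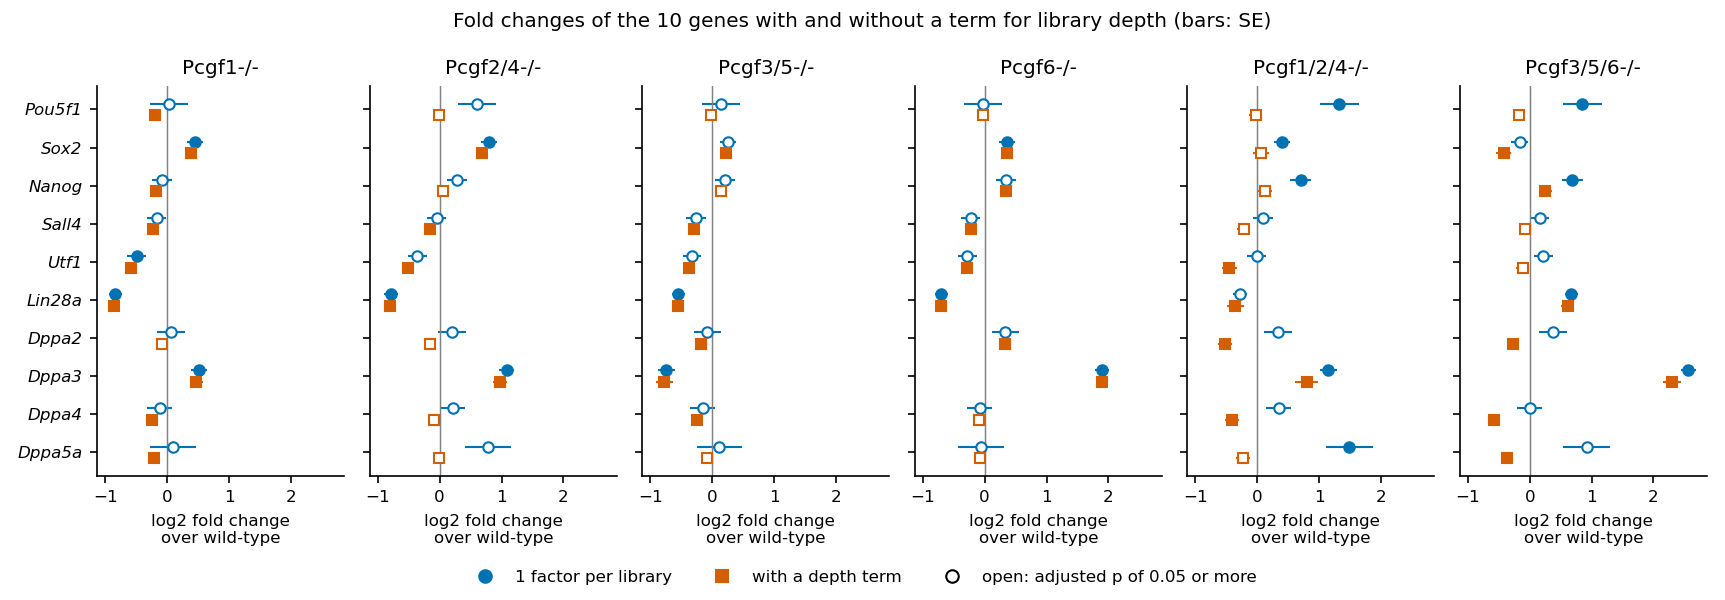
Log2 fold change over wild-type of the 10 genes in 6 knockouts (horizontal, bars: SE), with 1 scaling factor per library (circles) and with a term for depth (squares); open symbols have an adjusted p of 0.05 or more. Circles and squares lie close together for Dppa3 and Lin28a in the single and double knockouts, and part for Pou5f1 in Pcgf1/2/4-/-, at 1.33 and -0.02.

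Summed levels of markers of other cells differed between genotypes, and 1 or 2 genes carried most of each sum given here, so a sum is not the level of a cell type. The sum of 6 trophoblast markers was 348 to 351 CPM in Pcgf3/5/6-/- against 149.8 to 162 in wild-type. In it the keratin gene Krt7 was at a mean of 214.5 CPM against 0.709, Ascl2 at 101.4 against 26.4 and Elf5 at 9.07 against 0.0713, while Cdx2 was at 19.5 against 74.4, Eomes at 3.29 against 11.8 and Tfap2a at 1.61 against 42.3. The sum of 5 neural markers was 195 to 198 CPM in Pcgf3/5/6-/- against 87.3 to 87.6 in wild-type and 10.1 to 15.8 in Pcgf2/4-/-. Of the 195 to 198 CPM, Tubb3 held 170.03 (82.2 in wild-type) and Nes 25.6 (3.69), with Sox1, Pax6 and Neurog2 below 1 CPM in both groups. The sum of 7 primitive endoderm markers was 58.5 to 67.9 CPM in Pcgf3/5/6-/- and 48.0 to 54.7 in Pcgf6-/- against 19.8 to 23.0 in wild-type. Dab2 stood at 45.7 and 40.5 CPM in these lines against 0 and Hnf4a at 3.26 and 0 against 19.6, with Gata4, Gata6, Sox17 and Foxa2 below 2 CPM. The sum of 5 primed epiblast markers was 392 to 394 CPM in Pcgf1/2/4-/- and 66.6 to 76.2 in Pcgf6-/- against 190.1 to 192 in wild-type; in Pcgf1/2/4-/- Dnmt3b was at 360.4 CPM against 152.5 and Otx2 at 29.4 against 4.74, while T was at 1.93 against 33.1. The sum of 6 fibroblast markers was 35.8 to 38.5 CPM in Pcgf3/5/6-/- against 7.45 to 10.6, with Thy1 at 15.8 against 1.35 and Col1a1 at 15.4 against 7.38. Neurog2 had 0 counts in 6 of the 7 groups, Gata4 and Sox17 had 0 in wild-type and Dcn had 0 in wild-type and 5 knockouts. The part of these markers in the members' changes was not tested.

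At the chromatin level, H3K4me3, a mark of active promoters, had a peak within 2.5 kb of an annotated start at 10 of 10 members in wild-type (68.4% of 20819 annotated genes), 9 in Pcgf1-/- (67.3%), 10 in Pcgf2/4-/- (68.2%), 10 in Pcgf3/5-/- (67.0%) and 10 in Pcgf6-/- (70.1%). Each list comes from 1 ChIP-seq sample, so no test of a difference between lines was possible, and fold enrichment is the peak caller's value within its own list. The triple knockouts have no H3K4me3 or H3K36me3 list among those analysed here. In wild-type the highest peak at each gene had a fold enrichment of 95.8 at Sall4, 83.1 at Pou5f1, 71.8 at Utf1, 61.0 at Sox2, 60.3 at Dppa4, 55.3 at Nanog, 39.2 at Lin28a, 34.1 at Dppa2 and 28.04 at Dppa5a. Dppa3 was far below them at 7.87, and it was the 1 member without a peak in Pcgf1-/-, a line in which its RNA was higher than in wild-type. In the other lines the enrichment at Dppa3 was 9.26 (Pcgf2/4-/-), 8.66 (Pcgf3/5-/-) and 8.70 (Pcgf6-/-), a narrow range beside RNA levels of 54.6, 14.9 and 93.8 CPM. Counting only peaks with a −log10 q of at least 10, the wild-type list lost its Dppa3 peak too.

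H3K36me3, laid down over the bodies of transcribed genes, had a peak over 7 members in wild-type (39.7% of annotated genes), 8 in Pcgf1-/- (43.3%), 8 in Pcgf2/4-/- (40.0%), 7 in Pcgf3/5-/- (43.6%) and 8 in Pcgf6-/- (43.5%). Peaks covered 69.8% of Sox2, 64.6% of Pou5f1, 62.5% of Dppa2, 48.8% of Nanog, 46.9% of Sall4 and 40.1% of Dppa4 in wild-type. The short gene Dppa5a, 1126 bases from end to end, and Dppa3, 3863 bases, had no H3K36me3 peak in any of the 5 lines, although Dppa5a had the highest RNA per length of the 10. Lin28a was covered over 2.78% in wild-type and over 3.80% to 15.8% in the knockouts, and Utf1 over 0% in wild-type and Pcgf3/5-/- and 20.1% to 44.2% in the others. Pou5f1 was covered over 83.3% in Pcgf6-/- and 81.3% in Pcgf2/4-/-, where its RNA did not pass the test against wild-type.

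**Figure D4:**
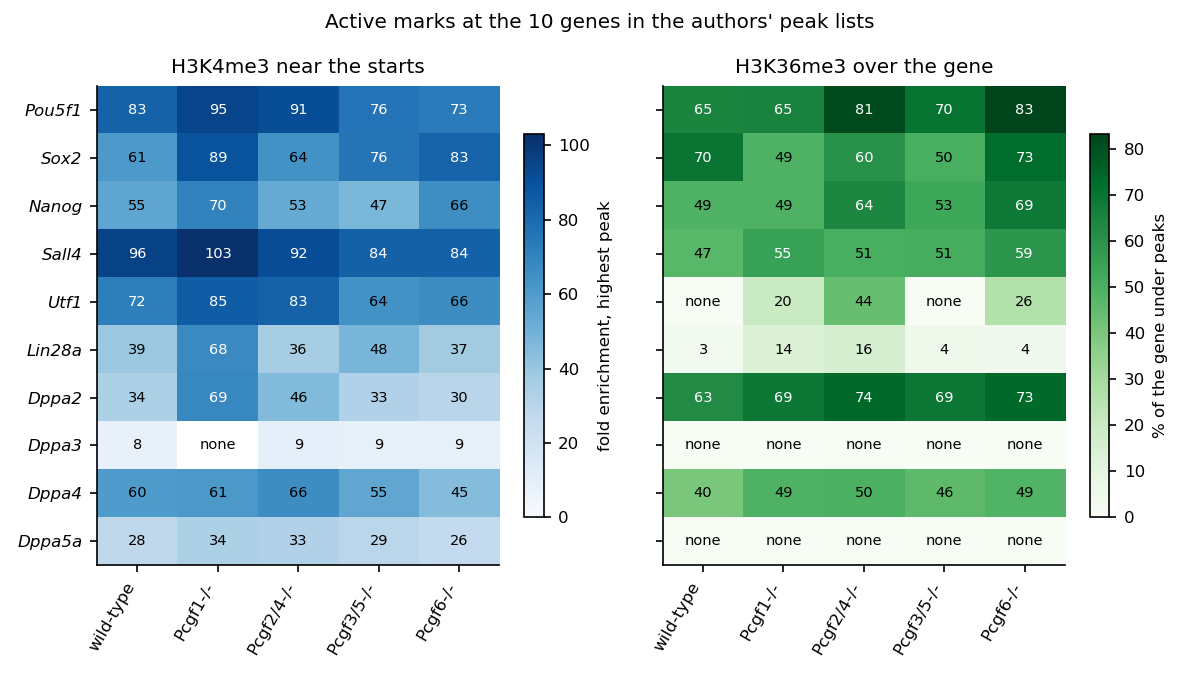
H3K4me3 near the starts (left, fold enrichment of the highest peak) and H3K36me3 over the gene (right, percent of the gene under peaks) for the 10 genes (rows) in 5 lines (columns), from 1 peak list per line. Dppa3 is pale in both panels, with a highest H3K4me3 enrichment of 9.26, while Sall4 and Pou5f1 reach 103 and 94.7.

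PCGF proteins were listed at few members. In wild-type no member had a promoter peak of PCGF1 (2.57% of annotated genes), PCGF2 (13.3%), PCGF3 (0.898%) or PCGF6 (5.83%). Nor was one listed for PCGF1 in Pcgf1-/- (0.00961%), Pcgf2/4-/- (5.78%) or Pcgf3/5-/- (0.812%), for PCGF2 in Pcgf1-/- (13.0%), Pcgf2/4-/- (3.58%) or Pcgf3/5-/- (10.1%), for PCGF3 in Pcgf1-/- (0.317%), Pcgf2/4-/- (0.423%), Pcgf3/5-/- (0.0480%) or Pcgf6-/- (2.32%), or for PCGF6 in Pcgf3/5-/- (5.40%) or Pcgf6-/- (1.63%). In Pcgf6-/-, PCGF1 peaks (10.1%) were listed at Utf1 (fold enrichment 6.98) and Sox2 (5.15), and PCGF2 peaks (20.3%) at Dppa3 (5.45 and 5.40). PCGF6 was listed at Utf1 in Pcgf1-/- (9.64; 18.1% of genes), Pcgf2/4-/- (11.04; 33.4%) and the control hairpin line (6.22; 20.9%), and at no other member in any list. These lists held peaks at more genes than the wild-type list of the same antibody. PCGF1 had promoter peaks at Dppa3, Lin28a, Sall4, Sox2 and Utf1 in Ring1a-/-_Ring1bfl (32.6% of genes), at Lin28a in Ezh1/2-/- (6.28; 2386 of 20819 genes) and at Sall4 in Ring1a/b-/- (6.63 and 5.47; 4.29%).

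USF1, an E-box binding factor, had promoter peaks in wild-type (17.0% of genes) at Sall4 (fold enrichment 14.2), Lin28a (7.39) and Sox2 (4.51), and a peak within the body of Dppa2 (19.0). The 121 bases around the USF1 summits at Lin28a and Sox2, and around the PCGF6 summit at Utf1 in Pcgf1-/-, are shown because they were the promoter peaks of these factors at members with the E-box CACGTG in that window. The E-box is in capitals, and the strand is that of the gene. The Lin28a window is chr4:133575046-133575166 (− strand) and the Sox2 window chr3:34548157-34548277 (+ strand), both upstream of the gene. The Utf1 window, chr7:147130740-147130860 (+ strand), overlaps a coding exon. All positions are in NCBIM37.
Lin28a USF1 peak: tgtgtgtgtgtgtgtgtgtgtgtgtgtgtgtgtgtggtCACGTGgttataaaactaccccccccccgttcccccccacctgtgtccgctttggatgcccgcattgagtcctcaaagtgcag
Sox2 USF1 peak: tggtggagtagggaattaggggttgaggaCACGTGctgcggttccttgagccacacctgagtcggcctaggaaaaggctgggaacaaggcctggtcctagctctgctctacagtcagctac
Utf1 PCGF6 peak: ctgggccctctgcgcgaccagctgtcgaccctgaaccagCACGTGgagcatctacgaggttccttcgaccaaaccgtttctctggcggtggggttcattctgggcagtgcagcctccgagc
The E-box stood in 6834 of 9659 such USF1 windows (70.8%) and in 857 of 5528 PCGF6 windows in Pcgf1-/- (15.5%). The windows around the PCGF6 summits at Utf1 in Pcgf2/4-/- and in the control hairpin line, whose summits lay nearer to the start, held none.

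At Dppa3, lists of other Polycomb proteins and marks held peaks in knockouts and none in wild-type. RING1B, the enzymatic subunit, was listed at Dppa3 only in Pcgf6-/- among the 7 genotypes (fold enrichment 7.19; 13.1% of genes in that list), with its summit 1772 bases past the nearest annotated start, and SUZ12, a subunit of complex 2, likewise (8.65; 15.1%). The RING1B lists without a peak there held peaks at 15.7% of genes in wild-type, 15.9% in Pcgf1-/-, 17.6% in Pcgf2/4-/- and 16.0% in Pcgf3/5-/-, and the SUZ12 list at 17.1% in wild-type. H3K27me3, the product of complex 2, was listed there in Pcgf3/5-/- (8.46; 21.5%), Pcgf2/4-/- (7.32; 36.7%), Pcgf6-/- (6.74; 14.1%), Pcgf1/2/4-/- (4.55; 5.79%, summit at -2550 bases from the nearest start) and Pcgf1-/- (3.82; 20.2%), and not in wild-type (13.3%) or Pcgf3/5/6-/- (20.2%). H2AK119ub1 was listed in Pcgf1-/- (10.3%), Pcgf2/4-/- (42.0%), Pcgf3/5-/- (66.8%) and 1 of 2 samples of Pcgf1/2/4-/- (1.73%), and not in wild-type (3.95%), Pcgf6-/- (7.21%) or Pcgf3/5/6-/- (32.1%). Peaks of H3K27me3 at Dppa3 were thus listed in lines where its RNA was lower than wild-type (Pcgf3/5-/-) and in lines where it was higher. The upstream 250 bases (chr6:122576178-122576427) and the 121 bases around the RING1B summit in Pcgf6-/- (chr6:122578483-122578603) are shown because the RNA of this gene differed most. Both are on the + strand of NCBIM37. The RING1B window overlaps a coding exon, and whether the summit itself lies in exon or intron was not determined. Neither window held any of the 6 motifs, so none is in capitals.
Dppa3 upstream: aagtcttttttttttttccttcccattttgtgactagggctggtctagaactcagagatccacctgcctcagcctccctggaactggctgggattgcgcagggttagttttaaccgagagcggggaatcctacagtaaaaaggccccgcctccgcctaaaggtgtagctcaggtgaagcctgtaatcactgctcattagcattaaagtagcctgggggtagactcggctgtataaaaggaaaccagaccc
Dppa3 RING1B peak: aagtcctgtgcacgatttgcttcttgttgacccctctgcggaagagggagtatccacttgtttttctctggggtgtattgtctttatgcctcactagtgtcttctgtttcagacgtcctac

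**Figure D5:**
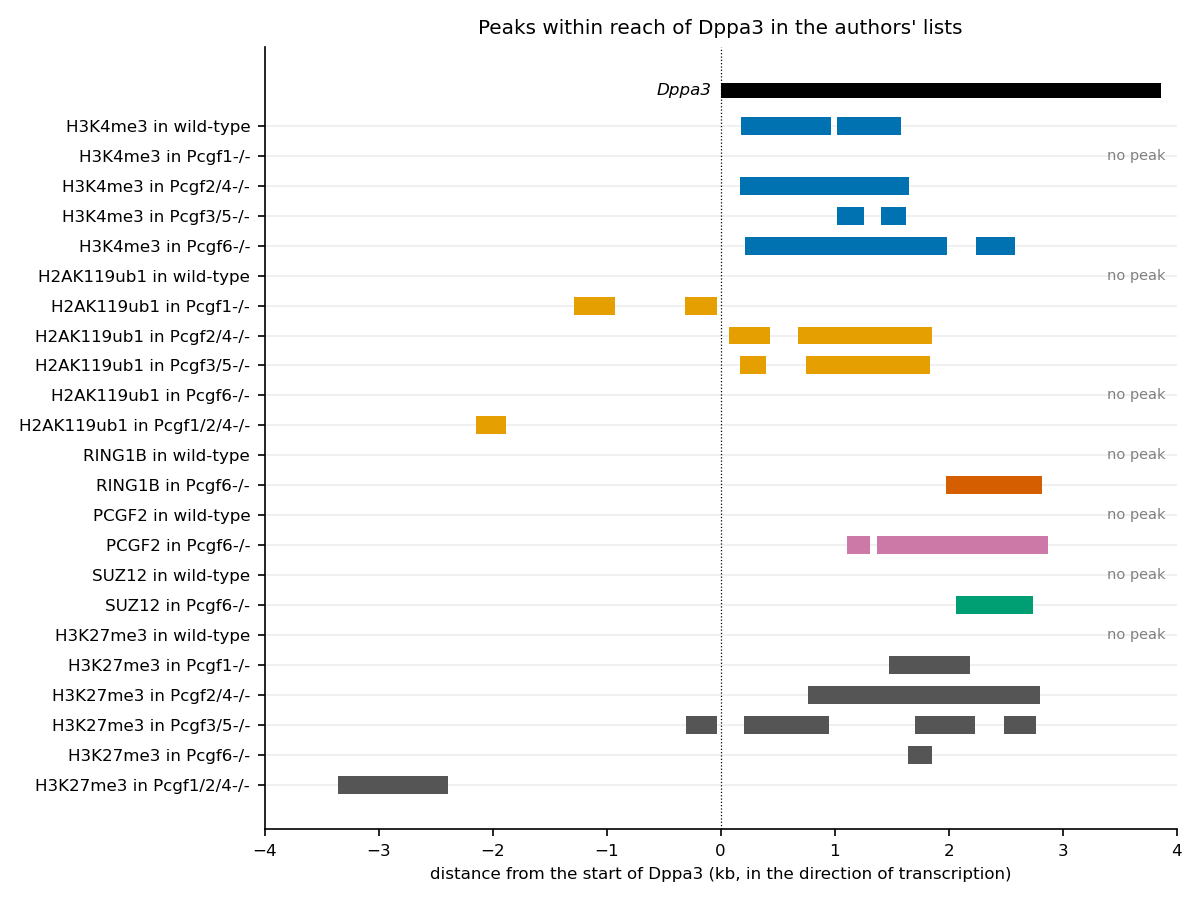
Peaks in the authors' lists (bars, 1 line per antibody and genotype) against the distance from the first annotated start of Dppa3 in kb (horizontal, in the direction of transcription; black bar: the gene). RING1B, PCGF2 and SUZ12 bars appear in Pcgf6-/- and not in wild-type, and H3K27me3 bars appear in 5 knockouts.

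Other members carried H2AK119ub1 where that mark was listed at many genes. In Pcgf3/5-/-, whose list held 66.8% of genes, 6 members had a promoter peak, with the highest fold enrichment at Utf1 (31.4) and Lin28a (30.1). In Pcgf2/4-/- (42.0%) and Pcgf3/5/6-/- (32.1%) 4 members each did, with Utf1 at 12.1 and 11.3 and Lin28a at 13.3 and 9.42. Lin28a RNA was lower than wild-type in the first 2 of these lines and higher in the third. H3K27me3 was listed at Lin28a in Pcgf2/4-/- (7.24) and at Sox2 in Pcgf3/5/6-/- (5.82).

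Sox2 and Utf1 had the highest CpG content of the 10. Over the 1001 bases centred on the first start the ratio of observed to expected CpG was 0.841 at Sox2 (percentile 84.5 of annotated genes) and 0.798 at Utf1 (78.7), and 0.303 to 0.443 at the rest, below the median of 0.559 over all genes. Sox2 and Utf1 were also the members with PCGF1 peaks in Pcgf6-/-, whereas PCGF1 lists of other lines held peaks at Dppa3, Lin28a and Sall4 too. A link between CpG content and these peaks was not tested.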

How the data were processed

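RNA was measured by poly-A RNA-seq in 14 libraries of 7 genotypes, and chromatin by ChIP-seq in 80 samples. Per the submitters' processing notes, the tools included TopHat2 2.1.1, HTSeq 0.7.2, Bowtie 1.2.2, MACS2 2.1.1 and Picard 1.62 with build mm9, with no settings stated. Picard is named without a role, so how duplicate reads were treated is unknown, and its part in the counts of the highest genes was not tested. The authors deposited whole-number counts per gene, and a table of log2 fold changes with adjusted p-values. The deposited peak lists give a fold enrichment (a ratio) and −log10 p and q values per peak, 1 list per sample, with a −log10 p of at least 10.

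The main test was edgeR 4.0.16's quasi-likelihood test in R 4.3.3 over all 14 libraries, with TMM factors, filterByExpr (15464 of 23377 genes kept) and Benjamini-Hochberg adjustment over all genes at 0.05. The main fit was tested on simulated counts in proportion to depth, with known changes in Pcgf6-/-. The fit with the depth term was not tested this way. The second fit added log2 library total; other settings were RLE factors, no filter, loess offsets, DESeq2 1.42.0, a replicate block, only 2 groups, each library left out, and wild-type summed as 1 sample. The last of these, loess offsets along counts per exonic base and the tests of differences between effects were added after values were seen. Replicate numbers did not pair the libraries: of 21 pairs of same-numbered libraries, 3 had deviations correlated above 0.1.

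Gene symbols were matched to the GENCODE annotation of NCBIM37 (20819 of 23377), and a promoter peak is one within 2.5 kb of an annotated start. The 10 genes and the gene lists were chosen with earlier results of these data known. Named beside the 10 are the 2 genes most like each over genotype means, with a mean log2 CPM of at least 2, and at most 4 genes per list and comparison by adjusted p; some genes that this rule names are not reported here. The ChIP-seq lists have 1 sample per antibody and line, apart from 2 for RING1B and H2AK119ub1 in Pcgf1/2/4-/-, so no test was made on them.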

Additional observations from a re-analysis of the deposited data

Results flagged for a closer look

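For some of the 10 genes, the difference between lines with and without a deletion was not the same in different backgrounds. It was tested by an interaction term in edgeR's quasi-likelihood test that was added after the values were seen. The lines compared are isolated clones. The log2 effect of losing PCGF1 in Pcgf2/4-/- cells minus that in wild-type cells was 1.36 for Lin28a (adjusted p = 3.92e-05; 1.31 with the depth term), 0.848 for Utf1 (adjusted p = 0.00906; 0.63) and -0.844 for Sox2 (adjusted p = 0.00376; -1.01). Lin28a was lower by 0.84 in Pcgf1-/- than in wild-type, while in Pcgf1/2/4-/- it stood 1.43-fold above Pcgf2/4-/-.

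For PCGF6 in Pcgf3/5-/- cells minus wild-type cells the difference was 1.92 for Lin28a (adjusted p = 1.25e-06; 1.87 with the depth term) and 1.41 for Dppa3 (adjusted p = 4.22e-05; 1.18). It was 0.830 for Utf1 (adjusted p = 0.00834; 0.55), 0.648 for Sall4 (adjusted p = 0.0342; 0.45) and -0.780 for Sox2 (adjusted p = 0.00539; -0.996). Pcgf6 RNA was at wild-type levels in the libraries labelled Pcgf3/5/6-/-, so the PCGF6 effect rests on the label of that line. Both differences use the same wild-type pair and clones of different depth, and clone and genotype cannot be told apart. Neither was refitted with that pair counted as 1 sample.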

How the results depend on the processing

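Of 580 log2 values of the 10 genes recomputed under other settings without leaving out a library, 471 kept direction and side of the threshold. Another 47 changed sign, and with the direction kept 7 lost the threshold and 55 passed it. A change of sign is counted only as such, also where the threshold was lost, as for Pou5f1 in both triple knockouts. The 580 are fold changes and, for the depth term, also the differences between effects that had passed. Of 126 counts, 100 stayed within 1.5 times; the cause of the other moves was not tested.

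With the depth term 9 genes passed in Pcgf1-/-, 5 in Pcgf2/4-/-, 7 in Pcgf3/5-/-, 7 in Pcgf6-/-, 7 in Pcgf3/5/6-/- and 4 in Pcgf1/2/4-/- against Pcgf2/4-/-, beside 9014, 6438, 6515, 10022, 10019 and 6493 of all 15464 genes. With loess offsets 4 passed in Pcgf3/5-/- (28.4% of all genes tested), 5 in Pcgf6-/- (50.3%), 7 in Pcgf3/5/6-/- (58.0%) and 5 in Pcgf1/2/4-/- against Pcgf2/4-/- (36.1%). Along counts per exonic base 7 (30.8%), 5 (53.5%), 7 (60.4%) and 6 (37.5%) passed, with 10 in Pcgf1/2/4-/- (40.7%). Of these 10, 5 were higher, with Pou5f1 and Dppa5a among them, and 5 were lower. Fitting only the 2 groups gave 4 in Pcgf3/5-/- (27.5%), 7 in Pcgf6-/- (66.1%), 9 in Pcgf1/2/4-/- (65.2%) and 8 in Pcgf3/5/6-/- (75.5%). It gave 1 in Pcgf1/2/4-/- against Pcgf2/4-/- (21.2%), where RLE factors also gave 1 (29.5%). With wild-type as 1 sample 2 passed in Pcgf1-/-. At least 50% cover by H3K36me3 left 3 genes in wild-type, 3 in Pcgf1-/-, 5 in Pcgf2/4-/- and 5 in Pcgf6-/-.

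Values that changed sign with the depth term were, in Pcgf1-/-, Pou5f1 -0.20, Dppa2 -0.083 and Dppa5a -0.21, and in Pcgf2/4-/-, Pou5f1 -0.0087, Dppa2 -0.15, Dppa4 -0.096 and Dppa5a -0.018. In Pcgf3/5-/- they were Pou5f1 -0.019 and Dppa5a -0.086, and in Pcgf1/2/4-/-, Pou5f1 -0.023, Sall4 -0.22, Dppa2 -0.53, Dppa4 -0.41 and Dppa5a -0.23. In Pcgf3/5/6-/- they were Pou5f1 -0.17, Sall4 -0.075, Utf1 -0.12, Dppa2 -0.27, Dppa4 -0.58 and Dppa5a -0.37. With loess offsets they were Dppa2 -0.029 in Pcgf2/4-/-, Pou5f1 0.082, Dppa4 0.028 and Dppa5a 0.047 in Pcgf6-/-, Sall4 -0.49 and Dppa2 -0.083 in Pcgf1/2/4-/- and Sox2 0.040 in Pcgf3/5/6-/-. Along counts per exonic base they were Nanog 0.0042 in Pcgf1-/-, Dppa2 -0.12 and Dppa4 -0.085 in Pcgf2/4-/-, Dppa5a -0.015 in Pcgf3/5-/- and Pou5f1 0.036 in Pcgf6-/-. The same offsets gave Sall4 -0.18, Dppa2 -0.29 and Dppa4 -0.25 in Pcgf1/2/4-/- and Sox2 0.0092 and Dppa4 -0.17 in Pcgf3/5/6-/-. Sall4 in Pcgf2/4-/- was 0.0037 with RLE factors, 0.00088 with DESeq2 and 0.020 with only 2 groups, and Utf1 in Pcgf1/2/4-/- 0.080, 0.080 and 0.061. Pou5f1 in Pcgf6-/- was 0.0085 with RLE factors and 0.0084 with DESeq2, and Dppa4 in Pcgf3/5/6-/- was -0.032 without the filter and -0.0054 with wild-type as 1 sample.

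Leaving out 1 library at a time, 1 to 3 genes passed in Pcgf1-/-, 3 to 7 in Pcgf2/4-/-, 3 to 4 in Pcgf1/2/4-/-, 3 to 7 in Pcgf1/2/4-/- against Pcgf1-/-, 1 to 7 in Pcgf1/2/4-/- against Pcgf2/4-/-, 3 to 4 in Pcgf3/5/6-/- against Pcgf3/5-/- and 3 in each case against Pcgf6-/-. Across the same fits, log2 fold changes in Pcgf1-/- ran from -0.30 to 0.37 for Pou5f1, -0.19 to 0.11 for Nanog, -0.13 to 0.32 for Dppa2, -0.28 to 0.12 for Dppa4 and -0.35 to 0.52 for Dppa5a. In Pcgf2/4-/- they ran from -0.071 to 1.08 for Pou5f1, -0.14 to 0.057 for Sall4, -0.17 to 0.52 for Dppa2, -0.12 to 0.52 for Dppa4 and -0.10 to 1.37 for Dppa5a. In Pcgf3/5-/- the ranges were -0.081 to 0.33 for Pou5f1, -0.23 to 0.053 for Dppa2 and -0.16 to 0.35 for Dppa5a, and in Pcgf6-/- -0.13 to 0.072 for Pou5f1 and -0.20 to 0.066 for Dppa5a. Utf1 in Pcgf1/2/4-/- ran from -0.051 to 0.054 and Dppa4 in Pcgf3/5/6-/- from -0.044 to 0.019.

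The replicate block changed no call among the 64 gene values computed with it. In Pcgf3/5/6-/- 5 genes passed against each of Pcgf3/5-/- (49.9% of all genes) and Pcgf6-/- (43.5%), in place of 6. The share raised among all called genes moved from 59.9% to 48.6% in Pcgf6-/- with loess offsets, and from 37.5% to 48.9% in Pcgf2/4-/- with offsets along counts per exonic base. Depth limits the triple knockouts most, and peak lists without replicates limit each statement on chromatin to the samples listed.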

Other observations

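More of the other pluripotency network genes fell than rose in Pcgf6-/- and Pcgf3/5/6-/-. Of 24 listed and tested with edgeR's quasi-likelihood test, 1 rose and 11 fell in Pcgf6-/-, and 3 rose and 13 fell in Pcgf3/5/6-/-; their median log2 fold changes were -0.37 and -0.57, beside 0.03 and 0.05 over all genes. In the other lines 2 rose and 2 fell (Pcgf1-/-), 4 and 2 (Pcgf2/4-/-), 2 and 1 (Pcgf3/5-/-) and 7 and 4 (Pcgf1/2/4-/-). Of all genes tested 27.8% rose and 18.6% fell in Pcgf6-/-, 28.0% and 25.3% in Pcgf3/5/6-/-, 13.9% and 18.4% in Pcgf1-/-, 8.10% and 13.5% in Pcgf2/4-/-, 11.1% and 10.4% in Pcgf3/5-/- and 14.4% and 22.6% in Pcgf1/2/4-/-. With the depth term the list's counts were 3 and 15, 3 and 18, 6 and 7, 7 and 5, 5 and 5, and 4 and 7 in the same order. Nr0b1, an orphan receptor gene, fell by 1.41 on the log2 scale in Pcgf6-/-. The Krüppel-like factor gene Klf2 fell by 1.14 in Pcgf1/2/4-/- and by 1.26 in Pcgf3/5/6-/-, where Klf5 fell by 1.27. Lefty1, a Nodal antagonist, rose from 29.2 CPM to 153.7 in Pcgf3/5/6-/- (log2 fold change 2.40) and rose in Pcgf3/5-/- (1.37), while Lefty2 fell from 104.8 CPM to 51.6 in Pcgf1-/- (-1.03). Stat3, which carries the LIF signal, fell by 0.65 in Pcgf2/4-/- and by 0.88 in Pcgf1/2/4-/-. Klf4 stands both in this list and among the stem cell markers.

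Among 5 tested relatives of Sall4 and Sox2, of 8 listed, 3 rose and 1 fell in Pcgf1-/-, 3 and 0 in Pcgf2/4-/-, 1 and 1 in Pcgf3/5-/-, 0 and 4 in Pcgf6-/-, 2 and 1 in Pcgf1/2/4-/- and 1 and 4 in Pcgf3/5/6-/- (4 and 1, 3 and 1, 1 and 1, 0 and 4, 2 and 1, and 1 and 3 with the depth term). For this list and the next, the shares of all genes that rose and fell in each line are those given with the network genes above. The depth term called 38.0% to 64.8% of all genes in either direction. Sall2 rose from 0.355 CPM to 4.70 in Pcgf1-/- and 6.14 in Pcgf1/2/4-/-, and Sall3 fell by 1.89 in Pcgf6-/- and by 2.63 in Pcgf3/5/6-/-. Sox15 fell by 1.16 in Pcgf1-/-, by 1.16 in Pcgf6-/- and by 1.32 in Pcgf3/5-/-, and Sox21 rose by 1.87 in Pcgf2/4-/-. Of 3 tested KH-domain relatives of Dppa5a, of 4 listed, 0 rose and 2 fell in Pcgf1-/-, 1 and 1 in Pcgf2/4-/-, 0 and 1 in Pcgf3/5-/-, 1 and 0 in Pcgf6-/-, 1 and 0 in Pcgf1/2/4-/- and none passed in Pcgf3/5/6-/- (0 and 2, 1 and 1, 1 and 1, 1 and 0, 1 and 1, and 0 and 1 with the depth term). Khdc3 fell by 1.77 in Pcgf3/5-/- and rose by 1.58 in Pcgf1/2/4-/-. Ooep had a log2 fold change of 0.65 in Pcgf1/2/4-/- (adjusted p = 0.0571) and -0.42 with the depth term, a change of sign as in Dppa5a.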
